A study of Homo sapiens with 16 samples.

Results

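This account follows CGA and other genes that answer to cyclic AMP (cAMP) in HEK293 cells, a human embryonic kidney line, after depletion of DNA topoisomerase I (Top1). The set named CGA, NR4A1, NR4A2, SIK1 and PER1, 5 genes in all, among 19333 genes of the RNA-seq table. CGA was taken by its row identifier, ENST00000369582. The others were taken as the row on the gene's strand that overlapped most with an hg19 window. NR4A1 had no row in its window and was not analysed here, which left 4 genes. The set was put together with the Top1 KD and scramble values in view, CGA above all, so their levels are a description and carry no test.

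Total RNA, depleted of ribosomal RNA, was sequenced from scramble cells (2 libraries), which received a negative control RNA, and from Top1 KD cells (2 libraries), which received an siRNA against Top1. Both groups were unmodified HEK293 cells transfected in 2 rounds, and no source used here says which of the study's Top1 siRNAs these RNA-seq libraries received. The labels number the libraries of each group as replicates 1 and 2 and describe the samples as of different passages. The p-values below set the difference between the groups against the spread between these libraries. That spread was estimated with information shared across genes.

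cAMP is the second messenger made by adenylyl cyclases when many hormone receptors are engaged. It releases the catalytic subunits of protein kinase A (PKA), which phosphorylate the transcription factor CREB. CREB binds the cAMP response element (CRE) and recruits the coactivators CREBBP and EP300, while the CRTC coactivators join it when the salt-inducible kinases (SIKs) no longer hold them in the cytoplasm. CGA encodes the alpha subunit shared by the glycoprotein hormones and is normally made in pituitary and placental trophoblast cells, where its paired CREs are a classic cAMP switch. NR4A1, NR4A2 and NR4A3 are orphan nuclear receptors induced within minutes by cAMP, SIK1 is a CREB target that restrains the CRTCs, and PER1 is a circadian clock repressor also induced through CREB.

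The promoter letters show how unlike these genes are upstream of their start. RefSeq promoter sequences (GRCh38.p14) were at hand for CGA, SIK1 and PER1 of the 4 genes. The 250 bases before each start are printed 5′ to 3′ on the gene's strand because they hold, or lack, the CREs. Capitals mark the full CRE (TGACGTCA) and the short CRE (TGACG, or CGTCA on the other strand), which also lies inside each full CRE.
CGA, chr6:87095107-87095356, minus strand: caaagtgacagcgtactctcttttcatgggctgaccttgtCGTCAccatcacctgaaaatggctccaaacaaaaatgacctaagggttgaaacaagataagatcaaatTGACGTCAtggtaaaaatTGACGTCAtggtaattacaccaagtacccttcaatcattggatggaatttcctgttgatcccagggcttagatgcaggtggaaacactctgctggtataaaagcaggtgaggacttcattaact
SIK1, chr21:43427132-43427381, minus strand: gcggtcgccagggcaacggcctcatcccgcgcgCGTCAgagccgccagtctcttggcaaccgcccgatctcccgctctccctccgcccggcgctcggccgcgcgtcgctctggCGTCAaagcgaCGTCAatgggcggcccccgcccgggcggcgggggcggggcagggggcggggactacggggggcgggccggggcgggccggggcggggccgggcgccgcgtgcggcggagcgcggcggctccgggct
PER1, chr17:8152405-8152654, minus strand: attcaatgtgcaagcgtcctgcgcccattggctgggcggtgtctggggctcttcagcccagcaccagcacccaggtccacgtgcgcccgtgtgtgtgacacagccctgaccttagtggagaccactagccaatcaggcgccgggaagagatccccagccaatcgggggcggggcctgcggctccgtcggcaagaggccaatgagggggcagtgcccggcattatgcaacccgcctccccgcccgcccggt

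CGA carried 2 full CREs, at positions -142 to -135 and -124 to -117 counted from its start base as 0. They sat in an exact tandem repeat of 18 bases, aaatTGACGTCAtggtaa, whose copies began at -146 and -128. Among 34943 promoter windows of 300 bases in the RefSeq table (250 bases before the start and 50 from it), 642 (1.84%) held a full CRE on either strand and 21 (0.0601%) held at least 2. SIK1 held no full CRE but 3 short CREs, with matches beginning at -217, -137 and -126. A short CRE, in any number, was found in 24.5% of all windows, and the share holding 3 or more was not computed. PER1 held neither motif, which says only that these letters are not in this window. None of these windows held an AP-1 site (TGANTCA, in 7.72% of all windows) or an NBRE, the NR4A binding site (AAAGGTCA, in 1.22%), on either strand. These matches are letters, and binding was not measured here.

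**Figure D1:**
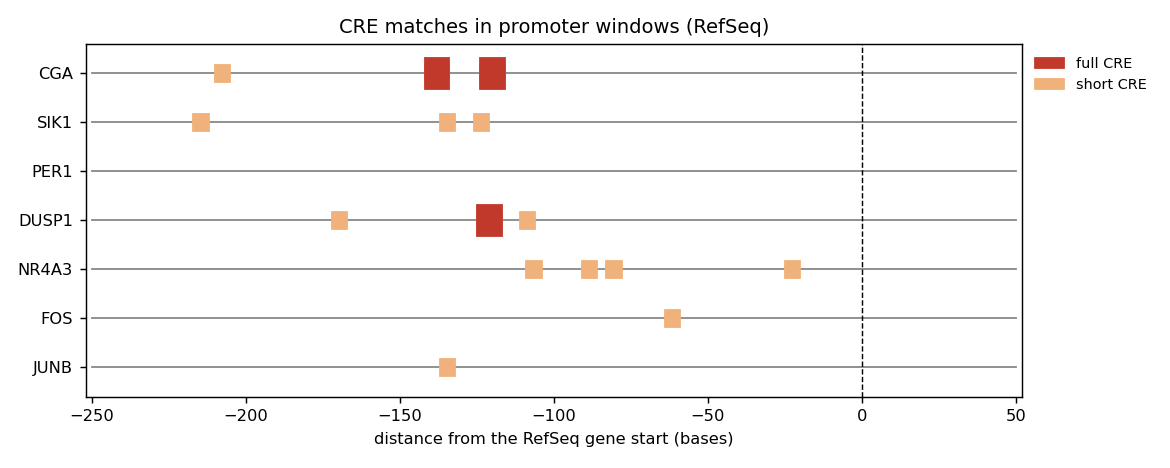
Positions of full CREs (red) and short CREs (orange) in RefSeq promoter windows of 7 genes, with distance from the gene start in bases on the x axis and the start as a dashed line. CGA is the gene with 2 full CREs, DUSP1 has 1, and PER1 has no match.

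RNA of the targeted gene was read as a check of the labels. The paper reports a check of Top1 depletion by Western blot and by RNA-seq. The values here are RNA, and protein was not measured in these libraries. TOP1 (hg19 chromosome 20, 39657458 to 39753127) stood at 1278 and 1246 normalized counts in scramble replicates 1 and 2 and at 1074 and 932 in Top1 KD replicates 1 and 2. A normalized count is the read count divided by the size factor of its library, not scaled for gene length. Both Top1 KD libraries lay below both scramble libraries, as they did for 29% of the 13086 genes tested. The TOP1 difference was 1.26-fold on the means of log2 values. The log2 fold change was -0.33 (standard error 0.13), and by limma its Benjamini-Hochberg adjusted p was 0.109. A call needed an adjusted p under 0.05 and at least 1.5-fold. TOP1 met neither threshold and was not called. TOP1MT, the mitochondrial enzyme, had a log2 fold change of -0.17 (adjusted p = 0.547 by limma).

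CGA (hg19 chromosome 6, 87795216 to 87804824, minus strand) was the gene of the set with the widest gap between the groups. Its normalized counts were 1221 in scramble replicate 1, 922 in scramble replicate 2, 37.9 in Top1 KD replicate 1 and 142 in Top1 KD replicate 2. These rest on 1144, 1048, 35 and 147 reads. The lower scramble library was 6.47 times the higher Top1 KD library, so the groups lay far apart. Group means were 1071 ± 211 (SD, n = 2) and 90.2 ± 74.0 (SD, n = 2), a log2 fold change of -3.83, or 14.2-fold lower in Top1 KD cells. All fold changes here are on the scale of log2(normalized count + 1).

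The size of the CGA difference was not the same in both Top1 KD libraries. It was -4.77 in replicate 1 and -2.89 in replicate 2 against the scramble mean on the log2 scale. The Top1 KD libraries differed from each other 3.76-fold. Of 1956 other tested genes with a Top1 KD mean within 2-fold of that of CGA, 98.9% differed less between these libraries, and their median absolute log2 ratio was 0.42 against 1.88 for CGA. The scramble libraries differed 1.32-fold, which was also wide for the level of CGA, since 96.2% of 4650 like genes differed less there (median absolute log2 ratio 0.13 against 0.40 for CGA). In bulk RNA, fewer cells making CGA and less CGA RNA per cell cannot be told apart.

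NR4A2 (hg19 chromosome 2, 157181610 to 157198860, minus strand) encodes a nuclear receptor best known for dopamine neurons. Its row spans 2.08 times the length of the RefSeq gene, just past the upper limit of 2 used to accept the rows of listed genes, so its identity is less sure than that of the other members. By that limit it would be left out, with 3 genes described. NR4A2 was at 79.0 and 73.0 normalized counts in scramble replicates 1 and 2 and at 26.0 and 65.9 in Top1 KD replicates 1 and 2. Both Top1 KD libraries were below both scramble libraries, but the nearest libraries of the groups were only 1.11-fold apart. The means were 76.0 ± 4.19 and 45.9 ± 28.2 (SD, n = 2 each), with a log2 fold change of -0.86. Most of that difference came from Top1 KD replicate 1, with 24 reads, where the difference from the scramble mean was -1.51 against -0.20 in replicate 2. Of 1619 tested genes of like Top1 KD level, 83.1% differed less than NR4A2 between the Top1 KD libraries.

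SIK1 (hg19 chromosome 21, 44834395 to 44847008, minus strand) varied least. It was at 501 and 586 normalized counts in scramble replicates 1 and 2 and at 485 and 398 in Top1 KD replicates 1 and 2. The means were 544 ± 59.7 and 442 ± 61.1 (SD, n = 2 each), a log2 fold change of -0.30. The groups did not overlap but nearly touched, since the lower scramble library was 1.03 times the higher Top1 KD library. The libraries within each group differed by more than that, 1.17-fold in scramble and 1.22-fold in Top1 KD cells.

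PER1 (hg19 chromosome 17, 8043790 to 8055753, minus strand) was at 117 and 75.7 normalized counts in scramble replicates 1 and 2 and at 93.1 and 28.1 in Top1 KD replicates 1 and 2. Here the groups overlapped, because Top1 KD replicate 1 lay between the scramble libraries. The means were 96.5 ± 29.5 and 60.6 ± 45.9 (SD, n = 2 each), and the log2 fold change was -0.86. That value came from Top1 KD replicate 2, with 29 reads and a difference of -1.71, while replicate 1 stood at -0.02 against the scramble mean. Of 1744 tested genes of like Top1 KD level, 94.6% differed less than PER1 between the Top1 KD libraries.

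In 3 of the 4 genes (CGA, NR4A2 and SIK1) both Top1 KD libraries were below both scramble libraries, as were 29% of the 13086 genes tested. The comparison is the one the set was chosen on, and nothing is read from that count. Which Top1 KD library was the lower one differed by gene. It was replicate 1 for CGA and NR4A2 and replicate 2 for SIK1 and PER1. Without Top1 KD replicate 1 the log2 fold change of NR4A2 was -0.20, and without Top1 KD replicate 2 that of PER1 was -0.02.

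**Figure D2:**
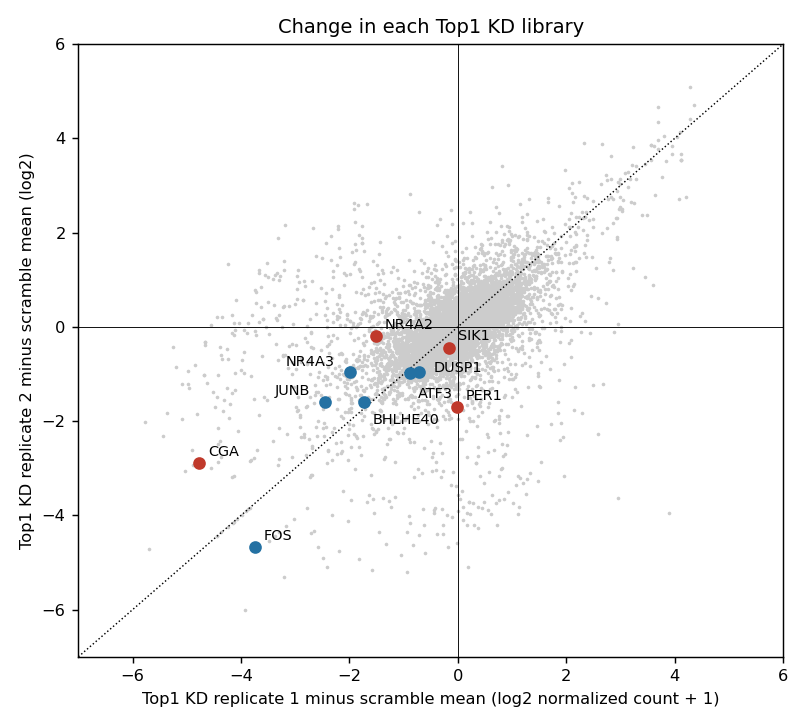
Difference of Top1 KD replicate 1 (x axis) and replicate 2 (y axis) from the scramble mean on the log2 scale, with the 13086 tested genes in grey, the set in red and other CREB targets or clock genes in blue. CGA lies at -4.77 and -2.89, NR4A2 lies near 0 on the y axis, and PER1 lies near 0 on the x axis.

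CGA is normally a product of trophoblast and pituitary cells, so other transcripts of those cells were examined. POMC and PRL, the pituitary hormone genes, and the keratin gene KRT7 had 0 reads in every library. A count of 0 in a single library still leaves room for an expected count of up to 3 reads there. GCM1, the trophoblast fusion regulator, had 13, 9, 0 and 4 reads in scramble replicates 1 and 2 and Top1 KD replicates 1 and 2. CYP19A1, the aromatase gene, was higher in Top1 KD cells, unlike CGA. It was at 164 and 183 normalized counts in scramble cells and 383 and 356 in Top1 KD cells, and it rose by 1.09 on the log2 scale (limma adjusted p = 0.00743). The summed level of these 5 markers was 178 to 191 in scramble and 360 to 383 in Top1 KD libraries, nearly all of it CYP19A1.

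Hardly any reads came from the listed beta subunit genes that were matched to a row (the LHB row was not matched and is not analysed here). Only FSHB, TSHB and LHB were listed, so other beta subunit genes were not examined. TSHB had 0 reads in each library and FSHB had 2 reads in scramble replicate 1 and 0 elsewhere. Of the receptors for these hormones, TSHR stood at 54.4 and 90.6 normalized counts in scramble and 96.3 and 27.1 in Top1 KD cells. FSHR and LHCGR had at most 12 reads in any library. FSHR and TSHR passed the filter on low values, and neither was called.

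The HEK293 label was checked against genes listed as HEK293 markers, namely VIM, KRT8, KRT18, PAX2 and NES. VIM, KRT8, KRT18 and PAX2 had reads in each library, while the globin gene HBB and the albumin gene ALB had 0 and the leukocyte gene PTPRC had at most 8. NES was uneven, with 86 and 4 reads in scramble replicates 1 and 2 and 32 and 40 in Top1 KD replicates 1 and 2. So was the collagen gene COL1A1, with 43 and 1 reads in scramble and 7 and 53 in Top1 KD replicates 1 and 2. KRT8 fell by 0.78 on the log2 scale (limma adjusted p = 0.000751), and its row overlaps that of KRT18 on the other strand. The summed HEK293 markers were 5176 to 5683 in scramble and 3454 to 4043 in Top1 KD libraries. Most of that gap was KRT8, at 4070.5 and 3741 normalized counts in scramble and 2016 and 2575 in Top1 KD cells. The other 4 were not called, with log2 values of -0.28 for VIM, 0.31 for KRT18, 0.52 for PAX2 and 0.88 for NES, and the median of the 5 was 0.31. The part of these markers in the results on cAMP-responsive genes was not tested.

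The wider pathway was read from lists of genes named from general knowledge, with earlier results of these data known, for CGA and FOS among them. FOS is a listed gene, so its call in the counts below is not independent of that knowledge. Across all 13086 tested genes, 558 (4.26%) were called lower and 508 (3.88%) higher in Top1 KD cells, at an adjusted p under 0.05 by limma and a change of at least 1.5-fold. Over 4 lists together, 56 genes were tested, of which 6 were called lower and 3 higher (16.1%, against 8.15% of all tested genes). The median log2 fold change was 0.00 in both the listed genes and all tested genes. These shares describe the lists, and no test of the lists was run.

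Of 17 tested other CREB targets, 4 fell and none rose (23.5% called, against 8.15% of all tested genes, of which 4.26% were called lower). Their median log2 fold change was -0.45, against 0.00 over all tested genes, and 12 of the 17 had values below 0. FOS, the AP-1 subunit, fell by 4.21 (limma adjusted p = 0.000173), from 410 and 182 normalized counts in scramble cells to 19.5 and 9.69 in Top1 KD cells. JUNB, its partner in AP-1, fell by 2.03 (adjusted p = 0.024), from 90.7 and 95.9 to 16.2 and 30.0. ATF3, a stress-induced factor of the CREB and ATF family, fell by 0.92 (adjusted p = 0.0207). DUSP1, a phosphatase of MAP kinases, fell by 0.84 (adjusted p = 0.0151), from 674 and 478 to 344 and 292.

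NR4A3, the third receptor of the NR4A family, was at 91.8 and 69.5 normalized counts in scramble replicates 1 and 2 and at 19.5 and 40.7 in Top1 KD replicates 1 and 2. Its groups did not overlap and its log2 fold change was -1.47 (standard error 0.56), but the adjusted p was 0.0936 by limma and it was not called. As with NR4A2, Top1 KD replicate 1 was the lower library. CREM, which also encodes the inducible cAMP repressor ICER, had a value of -0.36 (adjusted p = 0.209). EGR1, an immediate early zinc finger gene, had 49 and 28 reads in scramble and 17 and 0 in Top1 KD replicates 1 and 2 and was not called (adjusted p = 0.129). Not every listed target lay below 0. BTG2, an antiproliferative gene, had a value of 0.48 (adjusted p = 0.0849) and RGS2, a regulator of G protein signalling, 0.29 (adjusted p = 0.468).

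Of the 4 other CREB targets that fell, DUSP1 alone held a full CRE in its promoter window. A full CRE lay in 1.84% of all promoter windows. The gene counts that follow take any window of a gene, and some genes have several, so that share is not like for like. Of all the other CREB targets with a RefSeq promoter, 4 of 20 held a full CRE, namely CREM, DUSP1, AREG and SST. Of the pathway parts 1 of 20 did, PDE4A, and of the 13 clock genes none did. The stretches of 40 bases around these sites that lie before the gene start are given below, with the full CRE in capitals, beside the CGA repeat shown earlier.
DUSP1, chr5:172771297-172771336, minus strand: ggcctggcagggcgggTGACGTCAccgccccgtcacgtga
CREM, chr10:35195836-35195875, plus strand: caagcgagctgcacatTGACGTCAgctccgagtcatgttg
AREG, chr4:74445055-74445094, plus strand: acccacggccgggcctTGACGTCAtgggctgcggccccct
SST, chr3:187670418-187670457, minus strand: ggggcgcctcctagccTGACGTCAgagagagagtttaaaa
DUSP1 fell, CREM and PDE4A were not called, and AREG and SST, which encode the growth factor amphiregulin and the hormone somatostatin, had 0 reads in each library. FOS and JUNB, with the lowest values among the called targets, held 1 short CRE each and no full CRE. ATF3 held no CRE match and 1 NBRE.

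Of 24 tested parts of the cAMP pathway 1 fell and 2 rose (12.5% called, against 8.15% of all tested genes), and their median log2 fold change was 0.11. ADCY1, a calcium-stimulated adenylyl cyclase, fell by 0.65 (limma adjusted p = 0.00579), from 1296 and 1304 normalized counts to 773 and 890. PDE4B, a phosphodiesterase that degrades cAMP, was at 403 and 465 in scramble and 231 and 312 in Top1 KD cells, and at an adjusted p of 0.0509 it was not called. The transcription factors CREB1 (0.02, adjusted p = 0.95) and ATF1 (0.28, adjusted p = 0.337) were not called.

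Both pathway parts that rose were coactivators. CRTC1, a coactivator that SIKs keep in the cytoplasm, rose by 0.98 on the log2 scale (limma adjusted p = 0.0143), from 164 and 186 normalized counts in scramble cells to 368 and 325 in Top1 KD cells. CREBBP, the acetyltransferase recruited by phosphorylated CREB, rose by 0.63 (adjusted p = 0.0112), from 754 and 807 to 1362 and 1070. Their relatives were not called. CRTC3 had a value of 0.38 (adjusted p = 0.075), CRTC2 0.11 (adjusted p = 0.832) and EP300 0.05 (adjusted p = 0.88). The other kinases of the SIK1 family, SIK2 (0.30, adjusted p = 0.193) and SIK3 (0.37, adjusted p = 0.188), and their activating kinase STK11 (-0.04, adjusted p = 0.872) were not called either.

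PER1 was also set beside the clock. Of 14 tested clock genes 1 fell and 1 rose (14.3% called, against 8.15% of all tested genes), with a median of 0.07. BHLHE40, a clock repressor, fell by 1.67 (limma adjusted p = 0.00126), from 383 and 302 normalized counts to 102 and 111. TEF, a PAR bZIP activator under clock control, rose by 0.99 (adjusted p = 0.0131), from 166 and 189 to 383 and 328. NR1D2, the gene of REV-ERB beta (0.51, adjusted p = 0.00447), and CLOCK, the activator of PER genes (0.49, adjusted p = 0.0363), passed the p threshold and were under 1.5-fold. PER2 (0.20, adjusted p = 0.778) and CRY1 (0.03, adjusted p = 0.914), which act with PER1 as repressors, were not called, nor was NR1D1 (-1.14, adjusted p = 0.141), the gene of the nuclear receptor REV-ERB alpha. PER3 had 6 and 18 reads in scramble and 45 and 34 in Top1 KD replicates 1 and 2, and was not called (adjusted p = 0.145).

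With no fold threshold 12 listed genes passed, the others being NR1D2, CLOCK and PRKAR2A, a regulatory subunit of PKA (0.33, adjusted p = 0.0477 by limma). How many of the 9 calls held depended on which library was left out. Without scramble replicate 1 only FOS of the 9 was still called, and without scramble replicate 2 FOS, DUSP1 and BHLHE40 were. Without Top1 KD replicate 1 FOS and BHLHE40 were still called, and without Top1 KD replicate 2 all but ATF3 and DUSP1 were. In these fits the lone library is assumed to vary like the others, and all 9 kept their direction in each.

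The genes around the set are given beside the 8.15% of all tested genes that were called, and with so few neighbours nothing is read from their counts. Within 500 kb of CGA, 8 other genes were tested, all upstream of it, and none was called by limma, with log2 fold changes from -0.61 to 0.59 and a median of 0.04. Within the same distance of SIK1, 8 were tested and none was called, with a median of -0.07. Around PER1, 1 of 24 was called lower, with a median of 0.05, and a single row at 3.82 was not called. The single tested neighbour of NR4A2 was called higher, at 0.62, while NR4A2 itself was at -0.86.

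**Figure D3:**
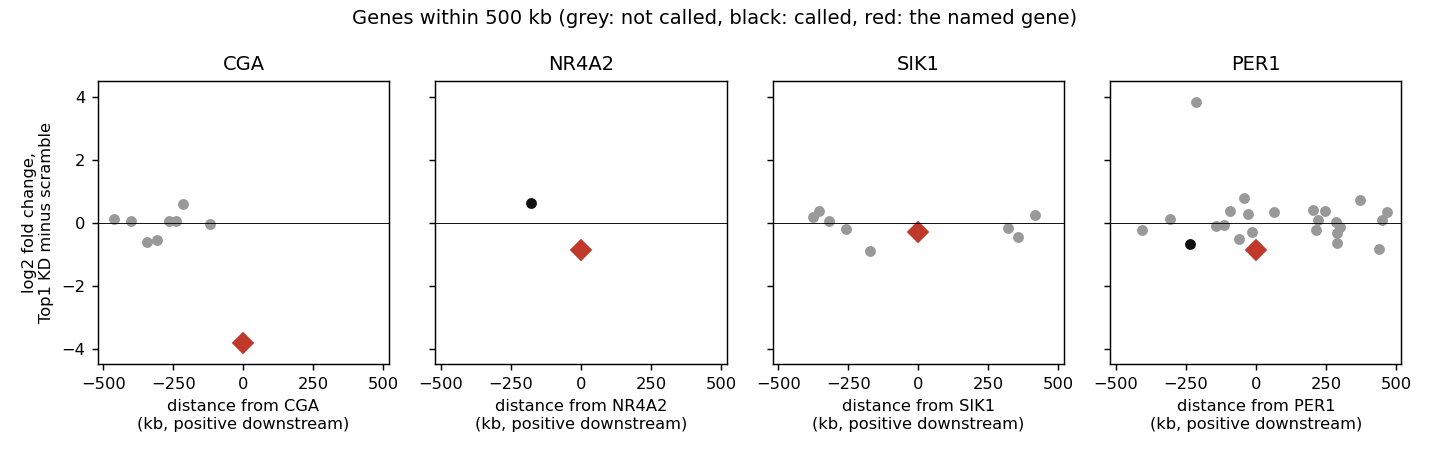
Log2 fold change (y axis) of tested genes within 500 kb of CGA, NR4A2, SIK1 and PER1 against distance in kb (x axis, positive downstream), with the named gene as a red diamond. Around CGA the neighbours lie between -0.61 and 0.59 while CGA lies at -3.83.

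The profile of CGA over the 4 libraries was compared with those of 10306 other genes whose mean level reached 100 normalized counts. Likeness was the Euclidean distance between log2 values centred on the scramble mean. The nearest row was ENST00000370053 (hg19 chromosome 20, 62271061 to 62284780, minus strand), at a distance of 0.58. It stood at 971 and 1089 normalized counts in scramble replicates 1 and 2 and at 48.7 and 151 in Top1 KD replicates 1 and 2. The next was ENST00000358432 (hg19 chromosome 1, 16450832 to 16482582, minus strand), at a distance of 1.45, with 424 and 275 in scramble and 31.4 and 63.0 in Top1 KD cells. Like CGA, both rows were lower in Top1 KD replicate 1 than in replicate 2, an order that the choice by distance over the 4 libraries largely fixes.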

How the data were processed

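RNA-seq was analysed in 2 scramble and 2 Top1 KD libraries. The samples of R-loop mapping (DRIP, DRIPc) and of polymerase ChIP were not analysed here. The submitters' processing notes name TopHat2 2.0.5, HTSeq, DESeq2 and hg19, and the paper adds fastq-mcf cleaning and uniquely mapped reads. Whether strand was used in counting is not given in the sources used here. The authors deposited, per gene and library, a signal, namely the read count divided by a DESeq2 size factor. Columns of the authors' own comparison were deposited beside it and not used, namely a mean signal, a log2 fold change, its standard error and statistic (a score), p-values and a call score.

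In each library 100% of values were whole multiples of 1 read within 0.05 reads, which gave 14681774 to 18366226 reads per library. The 13086 genes that reached 10 normalized counts in 2 or more libraries were compared by limma (version 3.58.1, under R 4.3.3). The scale was log2(normalized count + 1), with a mean-variance trend and Benjamini-Hochberg adjustment. Calls needed an adjusted p under 0.05 and 1.5-fold. An exact permutation test of 2 against 2 libraries cannot go below 0.333 (two-sided). As alternatives, the recovered reads were tested with edgeR (4.0.16) and with DESeq2 (1.42.0). The limma fit was checked on simulated data.

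Rows were named through hg19 windows written by hand. Of 86 list genes, 79 had a row in the window on the right chromosome and strand with 0.5 to 2 times the RefSeq length (GRCh38.p14), and 62 of these were within 5% of it. The other 7 were left out. NR4A2, at 2.08 times, was kept as a member of the set although the length rule as written would leave it out. No row of the 4 described genes or of the 9 called genes in the 4 lists of the wider pathway overlapped another row. Among the called marker genes, the row of KRT8 overlapped that of KRT18 on the other strand. The genes named were the set, TOP1 and TOP1MT, every called list gene, uncalled list genes needed to describe a role, and the 2 rows most like CGA. The set, the lists and the tests were chosen with earlier results of these data known, for CGA and FOS among them. Promoters came from RefSeq by symbol.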

Additional observations from a re-analysis of the deposited data

How the results depend on the processing

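The number of genes called was 1066, from 1004 to 1117 under the other tests, scaling, pseudocounts and filters, and 340 at a fold threshold of 2. It was 316 to 1329 when 1 replicate was left out, lowest without scramble replicate 1. Of the listed genes 9 were called, 9 or 10 under those other settings and 1 to 12 when 1 replicate was left out. Replicate numbers do not pair these libraries by their labels, and same-numbered libraries did not deviate together (correlation -0.01 across genes). With a replicate block 1085 genes and 10 listed genes were called, and the log2 fold change of TOP1 stayed at -0.33 (limma adjusted p = 0.0942). TOP1 was called under none of its 12 alternatives. Its log2 fold change lay between -0.44 and -0.23 in them, under 1.5-fold in each, so the fold threshold alone kept it from being called.

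CGA lay between -4.77 and -2.89 when 1 replicate was left out, NR4A2 between -1.51 and -0.20, SIK1 between -0.44 and -0.16 and PER1 between -1.71 and -0.02. Under the other tests the values of PER1 were -0.68 (edgeR) and -0.67 (DESeq2). Allowing 1 mismatch in the full CRE gave 2 genes of the set with a match, CGA and SIK1, in place of 1, and 11.8% of all windows. With 2 libraries per group and 24 to 86 reads behind some values of NR4A2 and PER1, their differences were within or near the spread between replicates.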
